A study of Mus musculus with 8 samples.

Results

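The genes described here are 9 interferon-response genes, Irf7, Irf1, Bst2, Igtp, Iigp1, Gbp2, Gbp3, Ifit1 and Ifit3, followed across 8 arrays of mouse retina. They were chosen by name, and every probe set that the platform annotation gives to them alone was used. This took 11 of the 45037 probe sets tested, since Iigp1 and Gbp2 each have 2, and 9 of the 18193 genes named. No filter on low values was set, so all 11 probe sets entered the tests. No expression level was set for membership, but the list was drawn up with earlier results of these data known.

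Interferons are secreted proteins that bind receptors on the same or neighbouring cells and start a kinase cascade that ends in transcription. Type I interferons act mainly through a complex containing IRF9 that binds the interferon-stimulated response element, and interferon gamma acts mainly through the gamma-activated site. In the retina, microglia, Müller glia, vessels and neurons can respond to interferon, and many of the induced genes have a low basal level. Irf1 and Irf7 encode transcription factors of the pathway, Bst2 encodes tetherin, Igtp, Iigp1, Gbp2 and Gbp3 encode GTPases, and Ifit1 and Ifit3 encode proteins that bind viral RNA or its binding partners.

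The samples were total RNA from retinas at postnatal day 40, freed of the retinal pigment epithelium, 1 array each. Per the labels, 3 arrays were homozygous for an Nxnl1 null allele (ko/ko), 2 were heterozygous (ko/wt) and 3 were wild type (wt/wt). All were of the strain labelled BALB/c AJ and were kept on the same light cycle without any treatment named. Nxnl1 encodes RdCVF, a photoreceptor protein related to thioredoxins that supports cone survival, and the comparison asks what its loss does to the retina. The labels say neither how the null allele was made nor that replicate arrays stand for different animals. P-values therefore refer to array-to-array spread, which may be technical. Values are log2 expression. In whole retina, fewer cells of a type and less RNA per cell cannot be told apart.

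The arrays did not all follow their labels at Nxnl1, and they differed in RNA quality. The brighter Nxnl1 probe set read 6.13, 8.76 and 6.13 on homozygous arrays 1, 2 and 3, 8.65 and 6.75 on heterozygous arrays 1 and 2, and 9.22, 8.87 and 8.65 on wild-type arrays 1, 2 and 3. Homozygous array 2 was thus within the wild-type range. Heterozygous array 2 lay well below every wild-type array, near homozygous arrays 1 and 3. Heterozygous array 1 read 8.654, beside a lowest wild-type reading of 8.6549, so which of the 2 heterozygous arrays departs from its label cannot be told. The differences of the 9 genes are given with and without homozygous array 2 and heterozygous array 2, called the arrays in doubt. Leaving both out leaves 1 heterozygous array. The name does not settle which heterozygous array departs from its label, and heterozygous array 1 may be the one. The actin control signal at the 5′ end minus that at the 3′ end, which becomes more negative as RNA degrades, ran from -1.74 to -0.69 in homozygous, from -0.90 to -0.71 in heterozygous and from -1.81 to -0.80 in wild-type arrays. Rod markers were high in every array, with a mean over 5 genes between 13.91 and 14.01 in homozygous, 13.90 and 13.97 in heterozygous, and 13.88 and 13.96 in wild-type retinas.

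The promoters of the genes show which of the 2 interferon motifs each carries close to its start. The windows hold 250 bases before and 50 bases after an annotated start, from RefSeq with the build GRCm38.p6, and 8 of the 9 genes had at least 1 window, with 10 windows in all. The response element was searched as GAAANNGAAA and the gamma-activated site as TTCNNNGAA, on both strands. Of 32851 windows of this length in the table, 3.44% held the first and 8.3% the second. Of the 8 genes, 6 held the first (Bst2, Igtp, Gbp2, Gbp3, Ifit1 and Ifit3) and 3 held the second (Irf1, Bst2 and Igtp). Counted by window, as those shares are, 6 of 10 held the first and 3 of 10 the second. Of 52 genes with a window in the wider interferon pathway list described below, 18 held the first and 17 the second. Irf7 held neither in its window, which says only that these letters are not there. The 5 windows shown, 5′ to 3′ on the gene's strand, are those of both transcription factors, of Bst2 and Igtp, which hold both motifs, and of Ifit1, which holds 2 response elements. Capitals mark the matches.
Irf7, chr7:141266375-141266674, minus strand: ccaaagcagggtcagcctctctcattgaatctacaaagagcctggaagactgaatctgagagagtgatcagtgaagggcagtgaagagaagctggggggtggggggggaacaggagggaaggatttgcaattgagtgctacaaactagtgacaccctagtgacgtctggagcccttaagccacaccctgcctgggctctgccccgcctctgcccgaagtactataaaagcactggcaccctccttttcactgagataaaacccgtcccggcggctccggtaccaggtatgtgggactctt
Irf1, chr11:53769764-53770063, plus strand: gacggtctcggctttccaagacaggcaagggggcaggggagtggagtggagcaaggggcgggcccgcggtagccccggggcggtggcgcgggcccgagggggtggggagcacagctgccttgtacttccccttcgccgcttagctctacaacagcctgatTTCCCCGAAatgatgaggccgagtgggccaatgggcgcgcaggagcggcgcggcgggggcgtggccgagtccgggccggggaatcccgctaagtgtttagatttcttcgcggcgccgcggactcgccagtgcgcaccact
Bst2, chr8:71537423-71537722, minus strand: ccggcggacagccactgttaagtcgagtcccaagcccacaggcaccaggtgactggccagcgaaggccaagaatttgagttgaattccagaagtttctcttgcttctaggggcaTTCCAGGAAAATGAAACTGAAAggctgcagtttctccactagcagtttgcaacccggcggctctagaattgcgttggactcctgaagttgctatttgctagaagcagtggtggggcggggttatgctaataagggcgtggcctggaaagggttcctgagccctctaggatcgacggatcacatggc
Igtp, chr11:58199306-58199605, plus strand: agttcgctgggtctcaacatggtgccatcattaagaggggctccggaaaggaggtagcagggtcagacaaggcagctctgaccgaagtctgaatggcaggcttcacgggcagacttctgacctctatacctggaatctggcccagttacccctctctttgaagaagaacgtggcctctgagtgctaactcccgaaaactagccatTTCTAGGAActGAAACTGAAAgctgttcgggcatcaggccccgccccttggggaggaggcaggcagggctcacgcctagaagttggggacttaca
Ifit1, chr19:34640639-34640938, plus strand: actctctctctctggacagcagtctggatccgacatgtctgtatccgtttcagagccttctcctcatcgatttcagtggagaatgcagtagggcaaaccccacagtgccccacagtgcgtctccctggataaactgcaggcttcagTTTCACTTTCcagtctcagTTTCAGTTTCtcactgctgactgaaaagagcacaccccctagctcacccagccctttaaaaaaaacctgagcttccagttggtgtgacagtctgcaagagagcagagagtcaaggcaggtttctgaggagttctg

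The matches lay upstream of the start in each case. In Bst2 the response element matched at -130 to -121 and again at -124 to -115, and the gamma-activated site at -136 to -128, so each match overlaps the next. In Igtp the response element lay at -34 to -25 and the gamma-activated site at -45 to -37. In Irf1 the gamma-activated site lay at -90 to -82. Ifit1 held 2 response elements on the opposite strand, at -104 to -95 and -85 to -76, and Ifit3 held 2 at -156 to -147 and -122 to -113. Gbp2 held 1 at -59 to -50, and Gbp3 held 2 that overlap, at -45 to -36 and -39 to -30. A match is a description of the letters and was not tested for binding.

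**Figure D1:**
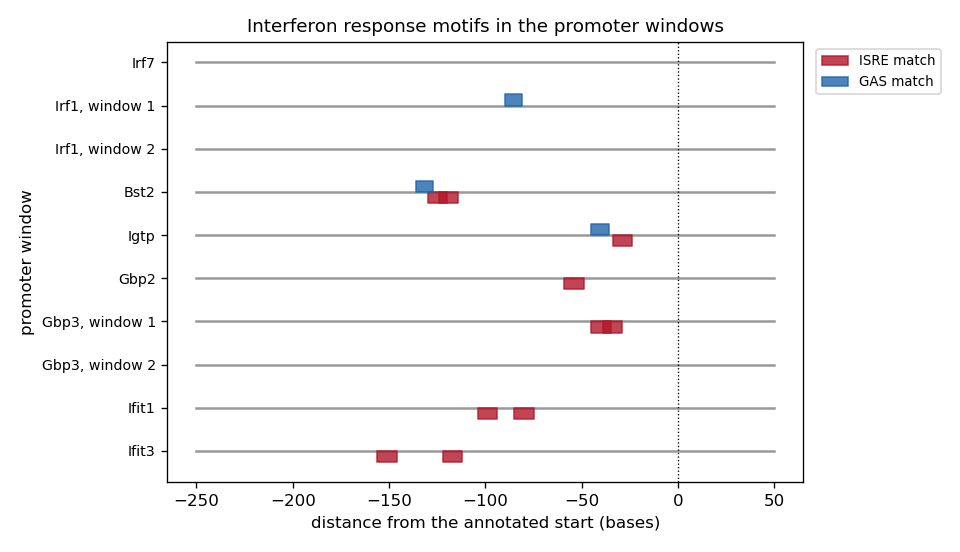
Matches to the interferon-stimulated response element (ISRE, red) and the gamma-activated site (GAS, blue) in the 10 promoter windows of 8 genes, with the distance in bases from the annotated start on the horizontal axis. The windows of Irf7, the second of Irf1 and the second of Gbp3 have no match.

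The 2 transcription factors differed in their pattern. Irf7, which drives the amplification of type I interferon production, read 6.97, 6.95 and 6.68 on homozygous arrays 1, 2 and 3, 6.97 and 6.88 on heterozygous arrays 1 and 2, and 6.65, 6.60 and 6.57 on wild-type arrays 1, 2 and 3. All 5 mutant-labelled arrays were above all 3 wild-type arrays, by 0.02 in the closest pair, homozygous array 3 against wild-type array 1. The mean was 6.87 ± 0.16 (SD, n = 3) in homozygous, 6.92 ± 0.06 (SD, n = 2) in heterozygous and 6.61 ± 0.04 (SD, n = 3) in wild-type retinas. The log2 difference of homozygous from wild type was 0.26 (SE 0.10) with a 95% interval of 0.02 to 0.50, a fold of 1.20. It did not pass limma's test over all probe sets (unadjusted p 0.038, adjusted p 0.99992). The exact two-sided permutation test gave p = 0.1, the smallest that 3 arrays against 3 allow. The heterozygous difference was 0.31 (SE 0.12, limma unadjusted p 0.0275, adjusted p 0.99994).

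Irf7 was also high where Nxnl1 was at the wild-type level. Homozygous array 2 and heterozygous array 1, whose Nxnl1 readings were 8.76 and 8.65 beside a lowest wild-type reading of 8.65, read 6.95 and 6.97 for Irf7, beside 6.97 on homozygous array 1. Without homozygous array 2 and heterozygous array 2 the homozygous difference was 0.22 (SE 0.125), and the 1 heterozygous array left differed by 0.36 (SE 0.16).

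Irf1, a factor induced by interferon gamma, differed little between the groups. It read 7.08, 7.13 and 7.08 on homozygous arrays 1, 2 and 3, 6.98 and 7.26 on heterozygous arrays 1 and 2, and 7.23, 7.08 and 7.06 on wild-type arrays 1, 2 and 3. The heterozygous arrays held both the lowest and the highest reading. The log2 difference of homozygous from wild type was -0.03 (SE 0.10), with a 95% interval of -0.26 to 0.21. The heterozygous difference was -0.0031 (SE 0.12), and without the 2 arrays in doubt the homozygous difference was -0.04 (SE 0.11) and the heterozygous -0.14 (SE 0.14). Its sign in homozygous retinas is not settled, since it was 0.03 without wild-type array 1.

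Bst2, the membrane protein tetherin that holds budding viruses at the cell surface, had a log2 difference of 0.37 (SE 0.16), a fold of 1.29. It read 6.25, 5.97 and 6.37 on homozygous arrays 1, 2 and 3, 5.89 and 6.40 on heterozygous arrays 1 and 2, and 5.69, 5.90 and 5.90 on wild-type arrays 1, 2 and 3. The homozygous arrays were all above the wild-type arrays, by 0.07 in the closest pair, and heterozygous array 1 lay among the wild-type values. The limma p was 0.0499 unadjusted and 0.99992 adjusted, and the exact two-sided permutation p was 0.1. The 3 highest readings, on heterozygous array 2 and homozygous arrays 3 and 1, were on the arrays that read lowest for Nxnl1. Without homozygous array 2 and heterozygous array 2 the homozygous difference was 0.49 (SE 0.12, limma unadjusted p 0.00681, adjusted p 0.976), and that of the heterozygous array left was 0.06 (SE 0.15). The heterozygous difference was 0.32 (SE 0.18) with both arrays and 0.57 with array 2 alone.

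Bst2 is also a chromosomal neighbour of the targeted gene. In the GRCm38 annotation it lies on chromosome 8 with 2 protein-coding genes, Mvb12a and Tmem221, between it and Nxnl1. None of the other 8 genes lies on chromosome 8. Whether that position has a part in the Bst2 values was not tested.

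**Figure D2:**
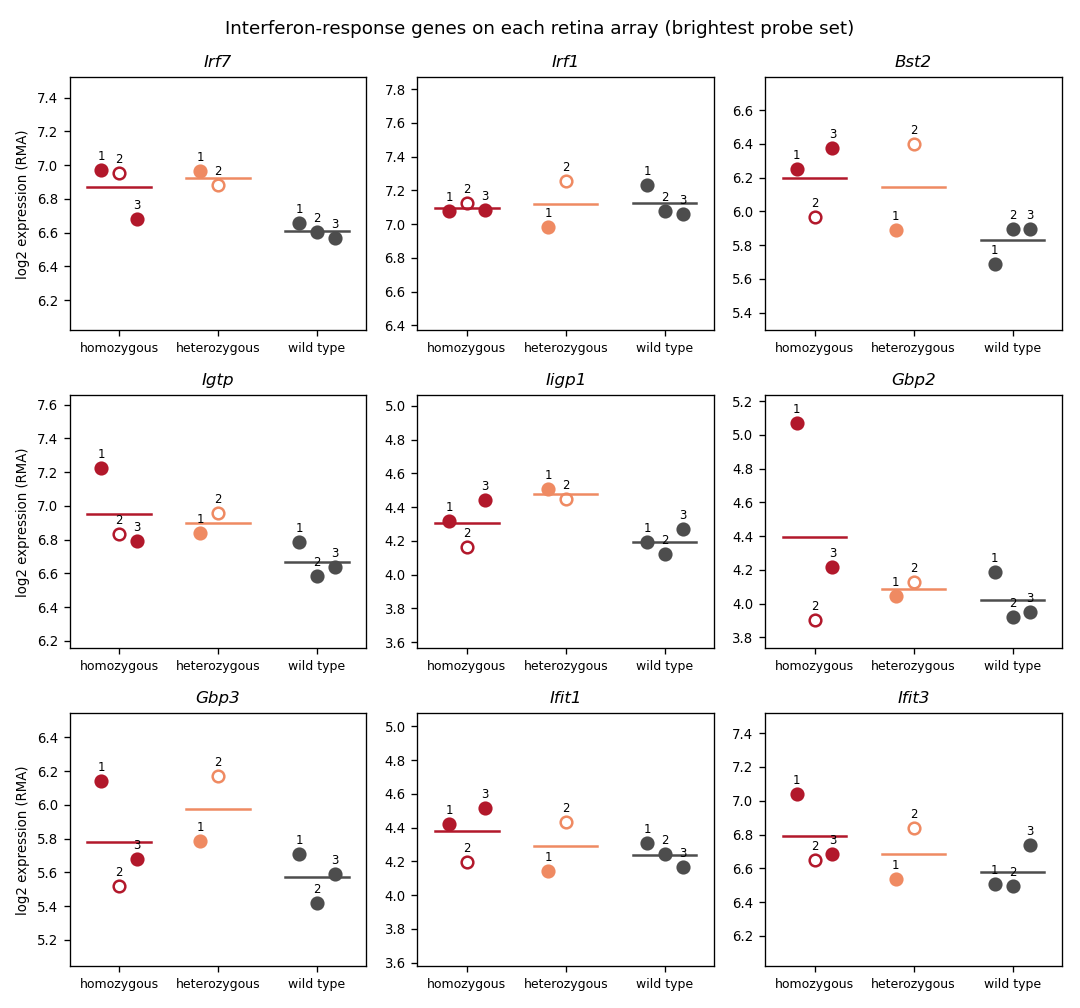
Log2 expression (vertical axis) of the 9 genes at their brightest probe set on each array, by labelled genotype, with the array number above each point and the group mean as a line. Open circles are homozygous array 2, whose Nxnl1 level is within the wild-type range, and heterozygous array 2, whose level is near homozygous arrays 1 and 3. Every panel spans 1.5 log2 units, and only Irf7 and Igtp have all 5 mutant-labelled arrays above all wild-type arrays.

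Igtp, an immunity-related GTPase that acts at the membranes around intracellular parasites, was the second gene with every mutant-labelled array above every wild-type array. It read 7.23, 6.84 and 6.79 on homozygous arrays 1, 2 and 3, 6.84 and 6.96 on heterozygous arrays 1 and 2, and 6.78, 6.59 and 6.64 on wild-type arrays 1, 2 and 3. Homozygous array 3 lay only 0.0095 above wild-type array 1. The log2 difference was 0.28 (SE 0.13, limma unadjusted p 0.063, adjusted p 0.99992) in homozygous and 0.23 (SE 0.15) in heterozygous retinas. It was 0.15 (SE 0.11) without homozygous array 1 in homozygous retinas. Without the 2 arrays in doubt it was 0.34 (SE 0.16) in homozygous retinas and 0.17 (SE 0.20) on the heterozygous array left.

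Iigp1, another immunity-related GTPase, was farther from wild type in heterozygous than in homozygous retinas. Its brighter probe set read 4.32, 4.16 and 4.44 on homozygous arrays 1, 2 and 3, 4.51 and 4.44 on heterozygous arrays 1 and 2, and 4.19, 4.12 and 4.27 on wild-type arrays 1, 2 and 3. Homozygous and wild-type arrays overlapped, and both heterozygous arrays were above all wild-type arrays. This brighter probe set was itself dim, with 23.5% of all probe sets below it. The difference from wild type was 0.11 (SE 0.10) for homozygous and 0.28 (SE 0.11, limma unadjusted p 0.0372, adjusted p 0.99994) for heterozygous retinas. The difference of homozygous from heterozygous was -0.17 (SE 0.11, limma unadjusted p 0.174), so a distinction between the mutant groups was not shown. Without the 2 arrays in doubt it differed from wild type by 0.185 (SE 0.11) in homozygous retinas and by 0.31 (SE 0.14) on the heterozygous array left. The dimmer probe set read between 2.97 and 3.46 on all arrays, among the lowest 3.41% of probe sets, and differed by 0.01 (SE 0.14) in homozygous and 0.07 (SE 0.15) in heterozygous retinas. Without the 2 arrays in doubt its differences were -0.14 (SE 0.11) in homozygous retinas and 0.01 (SE 0.13) on the heterozygous array left.

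The guanylate-binding proteins Gbp2 and Gbp3, GTPases that gather on pathogen membranes, stood out on single arrays. The brighter Gbp2 probe set read 5.07, 3.90 and 4.22 on homozygous arrays 1, 2 and 3, 4.04 and 4.13 on heterozygous arrays 1 and 2, and 4.19, 3.92 and 3.95 on wild-type arrays 1, 2 and 3. Only homozygous array 1 was clearly outside the range of the others. The difference of 0.38 (SE 0.26) became 0.04 (SE 0.14) without that array and 0.62 (SE 0.26) without the 2 arrays in doubt, and the heterozygous difference was 0.06 (SE 0.29). The heterozygous difference was 0.02 (SE 0.33) on the array left without the 2 in doubt, 0.11 without heterozygous array 1, 0.0029 with the replicate block and 0.33 (SE 0.20) with the actin difference as a covariate.

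The second Gbp2 probe set had another pattern. It read 4.18, 3.94 and 4.18 on homozygous arrays 1, 2 and 3, 3.68 and 4.26 on heterozygous arrays 1 and 2, and 3.92, 3.79 and 3.84 on wild-type arrays 1, 2 and 3. Here the homozygous arrays were all above wild type, by 0.02 in the closest pair, with a difference of 0.25 (SE 0.15), and the heterozygous difference was 0.12 (SE 0.17). Without the 2 arrays in doubt these were 0.33 (SE 0.10, limma adjusted p 0.976) in homozygous retinas and -0.17 (SE 0.13) on the heterozygous array left. Both probe sets were dim, with 21.3% and 17.7% of all probe sets below them, and the guanylate-binding proteins are similar in sequence, so signal from a related gene cannot be told apart.

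Gbp3 read 6.14, 5.52 and 5.68 on homozygous arrays 1, 2 and 3, 5.79 and 6.17 on heterozygous arrays 1 and 2, and 5.71, 5.42 and 5.59 on wild-type arrays 1, 2 and 3. Homozygous array 1 and heterozygous array 2 were the high arrays, and the homozygous range covered the wild-type range apart from its lowest array. The difference was 0.21 (SE 0.18) in homozygous and 0.41 (SE 0.20, limma unadjusted p 0.0767) in heterozygous retinas. Without homozygous array 1 the homozygous difference was 0.03 (SE 0.15), and without the 2 arrays in doubt it was 0.34 (SE 0.17). The heterozygous difference was 0.21 (SE 0.25) without heterozygous array 2 and 0.60 (SE 0.25) without heterozygous array 1.

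Ifit1 and Ifit3 belong to the tetratricopeptide family that is among the strongest targets of type I interferon. Ifit1, which binds viral RNA ends, read 4.42, 4.20 and 4.51 on homozygous arrays 1, 2 and 3, 4.14 and 4.43 on heterozygous arrays 1 and 2, and 4.31, 4.24 and 4.17 on wild-type arrays 1, 2 and 3. The groups overlapped, and its 3 highest readings were on the same arrays as those of Bst2. The Ifit1 probe set was dim, with 23.5% of all probe sets below it. The difference was 0.14 (SE 0.12) in homozygous and 0.05 (SE 0.13) in heterozygous retinas, and without the 2 arrays in doubt it was 0.23 (SE 0.11) in homozygous retinas and -0.10 (SE 0.13) on the heterozygous array left.

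Ifit3, which stabilises IFIT1 in humans, read 7.04, 6.65 and 6.69 on homozygous arrays 1, 2 and 3, 6.54 and 6.84 on heterozygous arrays 1 and 2, and 6.51, 6.50 and 6.74 on wild-type arrays 1, 2 and 3. Wild-type array 3 lay above 2 of the homozygous arrays. The difference was 0.21 (SE 0.14) in homozygous and 0.11 (SE 0.16) in heterozygous retinas. It was 0.09 (SE 0.13) in homozygous retinas without array 1 and 0.28 (SE 0.15) without the 2 arrays in doubt, which left a heterozygous difference of -0.04 (SE 0.19). Ifit3 has a near-identical neighbour, Ifit3b, on chromosome 19, and the probe set may take signal from both.

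**Figure D3:**
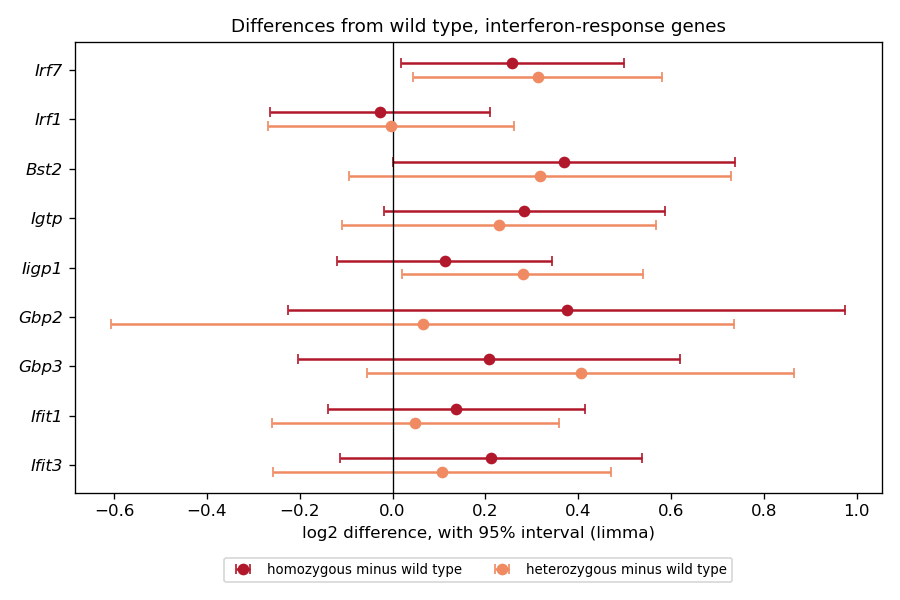
Log2 difference from wild type (horizontal axis) for the 9 genes, homozygous above heterozygous, as points with limma's 95% interval. The interval lies above 0 for Irf7 in both groups, for Bst2 in the homozygous and for Iigp1 in the heterozygous group, with no adjustment for the number of probe sets tested.

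No interferon-response gene passed the adjusted test. For homozygous against wild type limma called 0 of 11 probe sets, where 0.0% of all 45037 were called, and the smallest adjusted p in the table was 0.99992. Without adjustment, 411 probe sets in all had a limma p under 0.05. That is a smaller share than the 0.05 that evenly spread p-values would give. The absence of a call here does not show the absence of a difference. Of the 11, 2 (Irf7 and Bst2) had an unadjusted p under 0.05 and were higher, against 0.535% of all probe sets higher. Every homozygous array was above every wild-type array at 4 of the 11 (Irf7, Bst2, Igtp and the dimmer Gbp2 probe set), against 2.63% of all probe sets. The difference was above 0 at 10 of the 11, against 52.1% of all, with Irf1 the exception. The median over the 9 genes was 0.21, beside 0.0054 over all tested probe sets, whose quartiles were -0.07 and 0.07. The members were picked with such results in view, so these shares describe them and do not test them.

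Without the arrays in doubt the homozygous difference was larger in 7 of the 9 genes, smaller in Irf7 and farther below 0 in Irf1. Without homozygous array 2, every homozygous array was above every wild-type array at 7 of the 11 probe sets, against 9.29% of all probe sets, a count chosen after seeing the data. The median over the 9 genes was then 0.28, with 8 of 9 above 0. Without homozygous array 1 it was 0.11, again with 8 of 9 above 0, and without wild-type array 1 and homozygous array 1, the arrays with the lowest actin difference, it was 0.12 with 9 of 9 above 0. With the actin difference as a covariate it was 0.21.

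For heterozygous against wild type limma called 0 of 11 probe sets, where 0.0% of all were called and 516 had an unadjusted p under 0.05. That count, too, is a smaller share than 0.05. Of the 11, 2 (Irf7 and Iigp1) had an unadjusted p under 0.05 and were higher, against 0.511% of all. Both heterozygous arrays were above every wild-type array at 4 of the 11 (Irf7, Igtp, Gbp3 and the brighter Iigp1 probe set), against 7.03%. The difference was above 0 at 10 of the 11, against 50.6%. All 5 mutant-labelled arrays were above all wild-type arrays at 2 of the 11, Irf7 and Igtp, against 0.833%. The median over the 9 genes was 0.23, and 0.06 with heterozygous array 1 alone, where 6 of 9 were above 0. With heterozygous array 2 alone it was 0.26, where 9 of 9 were above 0. These comparisons share the 3 wild-type arrays. Homozygous minus heterozygous had a median of 0.05 over the 9 genes, and its smallest unadjusted limma p was 0.174.

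Array by array, the genes were highest on homozygous array 1 and heterozygous array 2. Each gene was set to its own mean over the 8 arrays, and the mean of the 9 was 0.28, -0.08 and 0.05 on homozygous arrays 1, 2 and 3, -0.03 and 0.17 on heterozygous arrays 1 and 2, and -0.08, -0.18 and -0.12 on wild-type arrays 1, 2 and 3. Of the 9 genes, 8 were above their mean on homozygous array 1 and 8 on heterozygous array 2, against 0 on wild-type array 2. Homozygous array 1 held the highest reading of 4 genes and heterozygous array 2 of 3. Homozygous array 2 lay next to the highest wild-type array in this mean. The mean was above 0 only on homozygous arrays 1 and 3 and heterozygous array 2, the arrays that read lowest for Nxnl1. Over the 8 arrays its Pearson correlation with the brighter Nxnl1 probe set was -0.865. The share of all probe sets with such an r with Nxnl1 was not counted. Since the members were chosen with earlier results of these data known, this r describes them and does not test them. Whether the Nxnl1 level has a part in these values was not tested.

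**Figure D4:**
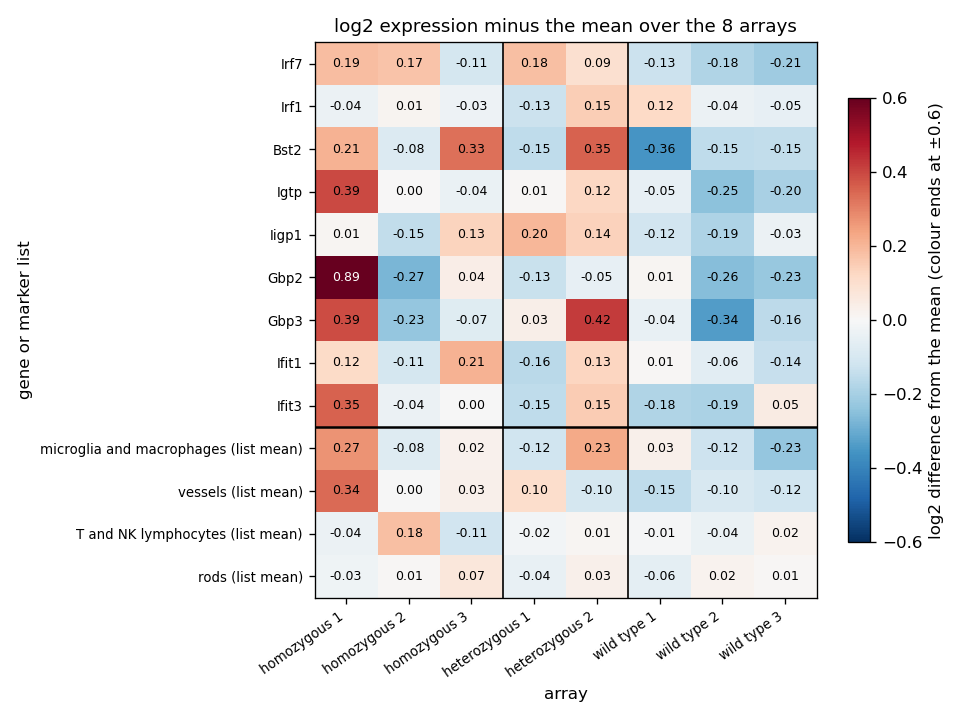
Log2 expression of the 9 genes (rows above the line) and mean of 4 marker lists (rows below it) on each of the 8 arrays, minus the row's mean over the arrays. Homozygous array 1 and heterozygous array 2 are high in most of the genes and in the microglia list, while the rod list varies by less than 0.15 over the arrays.

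Of the marker lists, that of microglia followed this pattern most closely, with an r of 0.9 with the mean of the 9 genes. The lens list had an r of 0.76, and the vessel and plasmacytoid dendritic cell lists 0.68 each. The remaining lists had an r between -0.3 and 0.07. The mean over 12 of 12 microglia and macrophage markers was 6.25, 5.90 and 6.001 on homozygous arrays 1, 2 and 3, 5.86 and 6.20 on heterozygous arrays 1 and 2, and 6.01, 5.85 and 5.74 on wild-type arrays 1, 2 and 3. Of these, 11 had a difference above 0 in homozygous and 9 in heterozygous retinas, with medians of 0.14 and 0.15. Without the 2 arrays in doubt 10 of 12 were above 0 in homozygous retinas with a median of 0.28, and 5 of 12 on the heterozygous array left with a median of -0.04. With all arrays 0 passed the adjusted test in either group. The macrophage lysozyme Lyz2, named after its values were seen, had the smallest homozygous p of this list. Lyz2 differed by 0.27 (SE 0.10) in homozygous retinas, by 0.31 without the arrays in doubt, and by 0.04 (SE 0.11) in heterozygous retinas. The mean over 7 of 7 vessel markers ran from 6.19 to 6.54 in homozygous, 6.09 to 6.30 in heterozygous and 6.05 to 6.10 in wild-type arrays. It was highest on homozygous array 1, and heterozygous array 2, at 6.09, lay below heterozygous array 1, at 6.30. All 7 vessel genes had a difference above 0 in both mutant groups, with medians of 0.24 in homozygous and 0.11 in heterozygous retinas. Without the 2 arrays in doubt these medians were 0.33 and, on the heterozygous array left, 0.17. The vessel gene Tie1, likewise named after its values were seen, had the smallest homozygous p of the vessel list. Tie1 differed by 0.58 (SE 0.17) in homozygous retinas, by 0.67 without the arrays in doubt, and by 0.04 (SE 0.19) in heterozygous retinas. It read low, between 3.57 and 4.64 on all arrays. With all arrays 0 of the 7 passed the adjusted test in either group. The mean over 7 of 8 T and NK lymphocyte markers ran from 5.01 to 5.30 in homozygous, 5.11 to 5.14 in heterozygous and 5.08 to 5.14 in wild-type arrays, with its highest value on homozygous array 2. No marker is listed at 0, since the scale has a floor near 2.5. The lens list ran from 4.71 to 8.75 in homozygous, 5.15 to 7.76 in heterozygous and 4.87 to 7.56 in wild-type arrays. Homozygous array 1 was highest in it and heterozygous array 2 next. The pigment epithelium list, with 0 of 5 genes above 0 in either mutant group, ran from 7.81 to 8.30 in homozygous, 7.70 to 7.84 in heterozygous and 7.97 to 8.61 in wild-type arrays. Although the retinas were described as freed of this epithelium, its gene Rpe65 read between 9.16 and 10.48, where array medians lay between 6.11 and 6.21. The part of these tissues and of RNA quality in the interferon-response values was not tested.

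Around the 9 genes, the wider pathway was described through a list of 71 genes by role, of which 65 were measured. None passed the adjusted test in either comparison. In homozygous retinas 42 of 65 were above 0 with a median of 0.04, beside 52.1% of all probe sets above 0. Of the 65, 3 were above wild type on every array (Cgas, Mx2 and the adaptor Myd88, the last named after its values were seen) and 1 below (Mx1), beside 2.63% of all probe sets above. In heterozygous retinas 39 of 65 were above 0 with a median of 0.02, beside 50.6% of all, and 11 were above and 8 below every wild-type array, beside 7.03% of all above. The share of all probe sets below every wild-type array was not counted in either comparison, so the counts below have nothing to be read against. Without the 2 arrays in doubt the homozygous median was 0.08, with 45 of 65 above 0. Of the pathway genes named below by rule, the 3 with the smallest p in each role, Ifngr2 and Usp18 turned their sign without those arrays, to -0.08 and 0.15.

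The ligands had low readings, of which only those of Ifng lay near the floor of the scale. Ifna4 differed by 0.19 (SE 0.13), Ifna2 by 0.09 (SE 0.10) and Ifng by -0.08 (SE 0.09) in homozygous retinas, and Ifng read between 3.01 and 3.25 on all arrays. The receptor subunits Ifnar1 and Ifnar2 of type I interferon differed by 0.11 (SE 0.11) and 0.16 (SE 0.18), and Ifngr2 of interferon gamma by 0.04 (SE 0.19). All 4 receptor genes were above 0 with a median of 0.07, Ifngr1 at only 0.0021, and 3 of 4 were above 0 without the arrays in doubt.

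Among 9 kinases and transcription factors, 5 were above 0. Irf8, which microglia and other myeloid cells require, had the smallest unadjusted limma p of them, 0.0738, with a difference of 0.34 (SE 0.17). It read 5.49, 4.80 and 5.15 on homozygous arrays 1, 2 and 3, 5.04 and 5.22 on heterozygous arrays 1 and 2, and 4.93, 4.78 and 4.70 on wild-type arrays 1, 2 and 3. Homozygous array 1 was again the highest array, and homozygous array 2 lay among the wild-type values. Irf9, a DNA-binding part of the complex activated by type I interferon, differed by 0.15 (SE 0.13), and Irf3, which is activated by RNA and DNA sensors, by 0.10 (SE 0.10).

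Of 11 sensors and adaptors, 7 were above 0. Those with the smallest p were Dhx58 with 0.21 (SE 0.11), the adaptor Ticam1 with 0.20 (SE 0.11) and the DNA sensor Cgas with 0.17 (SE 0.11). Of 5 inhibitors 2 were above 0, and Socs3, Ptpn2 and Usp18 differed by 0.07 (SE 0.10), -0.03 (SE 0.09) and -0.05 (SE 0.18). Usp18, a protease that removes ISG15 and restrains type I signalling, read 4.43, 3.71 and 4.16 on homozygous arrays 1, 2 and 3, 4.4997 and 4.54 on heterozygous arrays 1 and 2, and 4.01, 4.07 and 4.36 on wild-type arrays 1, 2 and 3.

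Other induced genes were mixed. Of 6 further GTPases 4 were above 0, with Irgm2 at 0.25 (SE 0.16), Mx2 at 0.09 (SE 0.08) and Mx1 at -0.18 (SE 0.085). Of 26 other effectors 18 were above 0 with a median of 0.04, and the oligoadenylate synthetases Oas2 and Oas3 lay in opposite directions, at 0.14 (SE 0.09) and -0.17 (SE 0.095). Ifitm1, which blocks viral entry, differed by 0.20 (SE 0.13). None of these had an unadjusted p under 0.05 in homozygous retinas.

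**Figure D5:**
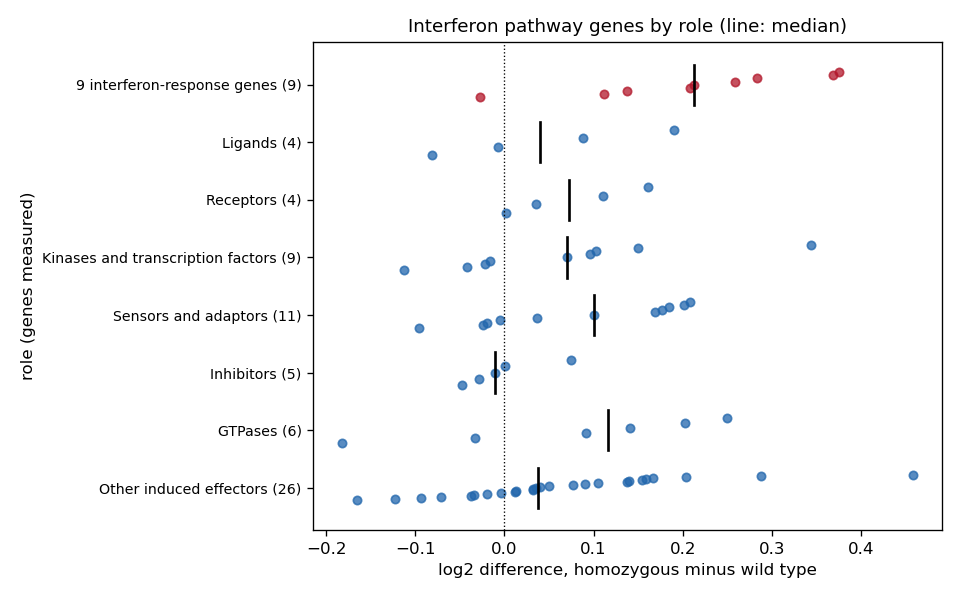
Log2 difference of homozygous from wild type (horizontal axis) for each measured gene, by role, with the 9 interferon-response genes in red, the pathway list in blue and the median of each role as a line. The 9 genes have a median of 0.21 and the roles of the pathway list have medians between -0.01 and 0.12.

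The transcripts whose pattern over the 8 arrays was most like the mean of the 9 genes were named by Pearson correlation, as a description, since the arrays share their groups and their RNA quality. They were the RNA-binding translin gene Tsn (r = 0.984), the mitochondrial tryptophanyl-tRNA synthetase Wars2 (0.982), the mRNA-binding Serbp1 (0.980), the receptor kinase inhibitor Spry1 (0.973), the actin-binding Tagln2 (0.972) and Ptcd2 (0.969). None is in the interferon pathway list or the marker lists. Their readings ranged over 0.22 to 0.95 between the lowest and the highest array. Over 34934 probe sets compared, 21.5% had an r above 0.5 with the mean of the 9 genes, so many transcripts resembled this pattern. Between the members, 33 of 36 pairs had an r above 0, with a median of 0.46 and the highest, 0.85, between Igtp and Gbp2 and between Igtp and Gbp3.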

How the data were processed

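Total RNA of mouse retina was hybridised to Affymetrix arrays, 1 per sample. The deposited values are log2 expression made by the authors with RMA (background correction, quantile normalization and probe summary), per the submitters' processing notes. No version is named there. Of the 9 samples in the series' design, 8 were used, and a further heterozygous one was not analysed here. RMA makes array distributions alike, so differences are relative to the bulk of transcripts, and the number of arrays limits the precision.

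Of 45101 probe sets, 64 controls were left out. Symbols of the platform annotation were updated through gene identifiers, and 34945 tested probe sets had 1 symbol, 932 several and 9160 none. Each gene's brightest probe set, by mean over all arrays, stood for it. All 8 arrays entered a linear model with 3 group means (limma 3.58.1, R 4.3.3, 5 residual degrees of freedom). P-values are two-sided from eBayes and adjusted by Benjamini-Hochberg over all probe sets, with a threshold of 0.05, and SE is the moderated one. Single genes also had exact permutation tests (scipy 1.17.1). The fit was tested on simulated data. Members and lists were chosen with earlier results of these data known. In each role up to 3 pathway genes of smallest p were named, and the 6 transcripts of most similar pattern. Alternatives were other normalizations, a dim filter, an intensity trend, a fit of just the groups compared, a replicate block, arrays left out, an actin covariate and the mean of a gene's probe sets.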

Additional observations from a re-analysis of the deposited data

How the results depend on the processing

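No interferon-response gene passed the adjusted threshold in any of the 18 alternatives of either comparison, where the smallest adjusted p was 0.943. Of 314 alternative values of single genes, 304 kept their direction and 10 turned it. Many of them could not turn. The intensity trend, the dim filter and a fit of just the groups compared leave a difference as it was. The same holds where the array left out is of a group not compared. The 304 therefore overstate how stable the directions are. Over all probe sets the count of calls was 0 in 16 of 17 alternatives of each comparison, and ran from 0 to 1 with each array left out in turn, the 1 being without wild-type array 3. With 1 array left out, Irf1 in homozygous retinas lay between -0.0585 and 0.0277, and it was 0.0373 without wild-type array 1 and homozygous array 1. Irf1 in heterozygous retinas lay likewise between -0.1409 and 0.1348, and it was 0.0522 without wild-type array 1 and homozygous array 1 and 0.0138 with the actin covariate. With 1 array left out, Ifit1 in heterozygous retinas ran from -0.0974 to 0.1944 and Ifit3 from -0.0446 to 0.258, and without homozygous array 2 and heterozygous array 2 they were -0.0974 and -0.0446. The causes were not tested. The number of genes with every homozygous array above every wild-type array was 6 without homozygous array 2, against 3 with it, an alternative chosen after seeing the data. With the replicate block, the median over the 9 genes was 0.21 in homozygous and 0.18 in heterozygous retinas, with 0 calls. Deviations of same-numbered homozygous and wild-type arrays correlated at 0.616, 0.23 and -0.035. Same-numbered pairs with a heterozygous array lay between -0.248 and -0.095. The pair at 0.616 holds the arrays with the lowest actin difference. Not every pair was thus above 0.1, and the labels name no shared batch or litter, so the numbers were not taken to pair the arrays. With dim probe sets left out, 4 of the 9 genes remained to test.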
